A study of Mus musculus with 9 samples.

Results

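The genes described here were 8 immediate early genes, Fos, Fosb, Jun, Junb, Jund, Egr1, Atf3 and Ier2, and the inducible heat shock genes Hspa1a and Hspa1b. They were chosen by symbol and are 10 of the 54534 genes in the deposited tables, and all 10 were read in the 9 single-cell RNA-sequencing libraries of mouse knee stroma. The mice were Gdf5-Cre;Tom;Pdgfrα-H2BGFP animals aged 11-12 weeks, in which Cre driven by the Gdf5 promoter leaves tdTomato in descendants of the embryonic joint interzone and the Pdgfrα promoter drives a nuclear green fluorescent protein. Sorted Tom+ cells (Gdf5 lineage) gave 2 steady-state and 4 injured libraries, and sorted Tom-GFP+ cells (Pdgfrα-expressing, outside the Gdf5 lineage) gave 1 steady-state and 2 injured libraries. Injured mice had an arthrotomy of the right knee with a full-thickness cartilage scratch in the trochlear groove, and their cells were taken 6 days later. No sham-operated group was analysed here. Every knee was digested with collagenase type IV (1 mg/ml, 50 min at 37 °C) before live cells were sorted, so the state of these genes in the undisturbed joint and their response to digestion cannot be told apart in any library. Libraries came from separate mice within a group, and each Tom-GFP+ library came from a mouse that also gave a Tom+ library. Which Tom+ library shared a mouse with which Tom-GFP+ library was not given, and the tests between lineages treat them as independent.

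Immediate early genes are transcribed within minutes of a growth factor, cytokine, mechanical or stress signal, from factors already present in the cell, and most of their transcripts are short-lived. Fos and Fosb encode leucine zipper proteins that pair with Jun, Junb or Jund proteins into AP-1, the dimer that binds enhancers of matrix protease, cytokine and proliferation genes. Egr1 is a zinc finger factor downstream of ERK signalling and serum response factor, Atf3 is a stress-induced leucine zipper factor, and Ier2 is a short early-response protein. Hspa1a and Hspa1b encode nearly the same inducible chaperone of the HSP70 family and are switched on by heat shock factor when proteins misfold. In the joint, AP-1 is best known from inflamed synovium and osteoclasts, and both families are also known to answer to enzymatic tissue digestion.

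The promoters of the 8 members found in the RefSeq promoter table (GRCm38.p6) were read over the 250 bases before each start. Egr1 and Ier2 are named only. The core TGACG of the cyclic AMP response element, searched on both strands, lay in 4 of the 8 (Fos, Fosb, Junb and Atf3), against 17.8% of 32851 promoters of the same length. The CCAAT box lay in Jun, Junb, Hspa1a and Hspa1b (33.8% of all promoters). The CArG box of serum response factor (1.47% of all promoters), the AP-1 motif TGANTCA (6.75%) and a strict heat shock element of 3 alternating GAA and TTC units (0.466%), were in none of the 8 windows. Sequence beyond 250 bases and imperfect matches were not searched, so a gene may still carry such sites. Fos (chromosome 12, plus strand, chr12:85473640-85473889) and Fosb (chromosome 7, minus strand, chr7:19310046-19310295) are shown because both belong to the same subfamily and share the motif, with TGACG in capitals. Fos held 2 copies and Fosb 1.

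Fos: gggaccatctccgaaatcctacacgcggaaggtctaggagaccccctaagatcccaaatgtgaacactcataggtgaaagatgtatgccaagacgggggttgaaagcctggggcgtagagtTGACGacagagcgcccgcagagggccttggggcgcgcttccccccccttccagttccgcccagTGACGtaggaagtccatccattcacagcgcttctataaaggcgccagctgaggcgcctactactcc
Fosb: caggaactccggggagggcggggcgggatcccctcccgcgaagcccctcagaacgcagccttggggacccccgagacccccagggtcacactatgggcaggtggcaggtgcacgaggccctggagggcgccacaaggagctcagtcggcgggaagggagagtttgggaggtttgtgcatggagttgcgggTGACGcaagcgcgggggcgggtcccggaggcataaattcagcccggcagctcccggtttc

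Hspa1a (chromosome 17, minus strand, chr17:34972157-34972406) and Hspa1b (minus strand, chr17:34959239-34959488) are shown because their windows are nearly the same, with the bases that differ in capitals. The windows carried the same base at 247 of 250 positions (98.8%) and differed at 3.

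Hspa1a: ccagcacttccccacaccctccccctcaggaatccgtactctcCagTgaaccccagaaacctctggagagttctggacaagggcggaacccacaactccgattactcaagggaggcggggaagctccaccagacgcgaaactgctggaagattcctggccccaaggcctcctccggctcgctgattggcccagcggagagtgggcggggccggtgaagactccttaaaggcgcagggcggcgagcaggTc
Hspa1b: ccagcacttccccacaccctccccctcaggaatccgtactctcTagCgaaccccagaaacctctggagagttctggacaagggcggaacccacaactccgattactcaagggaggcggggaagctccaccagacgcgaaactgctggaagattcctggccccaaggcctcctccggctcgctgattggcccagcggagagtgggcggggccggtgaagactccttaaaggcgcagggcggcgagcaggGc

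The transcripts of the pair also overlapped in sequence. Of the 2877 windows of 91 bases in Hspa1a, 1412 (49.1%) occurred unchanged in Hspa1b, and among the first 500 windows, nearest the 5′ end that the kit reads, 291 (58.2%) did. Reads that fall in such windows cannot be assigned to either copy, so the split between Hspa1a and Hspa1b is uncertain. Their sum is given as well, but it too would miss such reads if they were left out of the counts. The ratio of Hspa1a to Hspa1b UMIs lay between 0.979 and 1.56 over the 9 libraries, with a median of 1.06. Jun overlaps the antisense gene Junos, Jund overlaps Gm11175, Junb overlaps Prdx2, Atf3 overlaps Gm24748 and Hspa1a overlaps Gm20481, each on the opposite strand. Whether the counting used strand is not given in the sources used here.

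After cells with fewer than 500 genes, fewer than 1000 UMIs or more than 10% mitochondrial UMIs were left out, 4788 of 5161 barcodes remained, of which 4652 were stromal (265 to 818 a library). Cells were gated by marker genes into lining fibroblasts (819 cells, Prg4 and Clic5), sublining fibroblasts (2909, Thy1 and Cd34), osteoblast-lineage (203), chondrocyte-lineage (99), tenocyte-lineage (226) and mural cells (113), and 283 cells stayed ungated. Total UMIs ran from 2866464 to 15033902 a library, and the median UMIs per cell from 8050.5 to 8647 in the 3 steady-state libraries and from 12223 to 18567 in the 6 injured ones. This gap in depth runs with injury in every comparison of state. Cells with cycling markers made up 0 to 0.184% of steady-state and 0.377% to 17.0% of injured stromal cells, and 12 barcodes were shared between libraries. In the stromal sums, markers of immune cells together reached 0.670 to 22.2 CPM and those of endothelial cells 1.01 to 80.7 CPM. Tom+ injured replicate 1 stood apart as the deepest library (18567 UMIs per cell) with the most cycling cells (17.0%), and it was the only injured library with the older of 2 gene-list formats, which all 3 steady-state libraries carry.

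In stromal cells every member was detected in every library, and most immediate early genes were highest in the single Tom-GFP+ library of steady state and lowest in Tom+ injured replicate 1. Levels are UMIs of a gene per 1000000 stromal UMIs of a library (CPM). They are compared between libraries and not between genes. After scaling by edgeR's TMM factors, the Tom-GFP+ steady-state library was the highest for 6 members, against 17% of all genes. On that scale Tom+ injured replicate 1 was the lowest for 8 members, against 12% of all genes. Fos measured 1889 and 2071 CPM in the 2 Tom+ steady-state libraries, 762, 1152, 2191 and 1691 in the 4 Tom+ injured libraries, 2534 in the Tom-GFP+ library at steady state and 1498 and 1285 in its injured counterparts. Fosb, its closest relative, measured 280 and 242, then 118, 142, 258 and 230, then 376, then 243 and 210 CPM in the same order. For both genes the Tom+ groups overlapped, since Tom+ injured replicate 3 lay within or above the steady-state range, while both Tom-GFP+ injured libraries lay below the steady-state one.

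The Jun subfamily, the partners of Fos in AP-1, was lower in injured libraries with less overlap. In the order Tom+ steady state, Tom+ injured, Tom-GFP+ steady state and Tom-GFP+ injured, Jun measured 662 and 1010, then 253, 524, 590 and 537, then 1670, then 663 and 449 CPM. Junb measured 1377 and 1697, then 508, 893, 1352 and 759, then 1918, then 892 and 763 CPM. Jund, the member of the subfamily known for steady rather than burst-like transcription, measured 1034 and 762, then 533, 515, 631 and 574, then 880, then 625 and 608 CPM. All 3 genes were lower in each of the 4 Tom+ injured libraries than in both Tom+ steady-state libraries on this scale, and Jund spread least over the 9 libraries, by 2.01-fold from lowest to highest against 6.59-fold for Jun. After TMM scaling this separation held for Jun and Jund and for 21% of all genes. It did not hold for Junb, with 1373 in Tom+ injured replicate 3 against 1333 in Tom+ steady replicate 1.

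Egr1 was lower in every injured library than in any steady-state one. It measured 1051 and 1169 CPM in Tom+ steady state, 338, 586, 620 and 519 in Tom+ injured, 1615 in Tom-GFP+ steady state and 547 and 404 in Tom-GFP+ injured. Ier2 measured 587 and 774, then 268, 352, 540 and 403, then 869, then 488 and 288 CPM. Neither gene overlapped between the states in either lineage. After TMM scaling, all injured libraries lay below the steady-state ones for 21% of all genes in the Tom+ lineage. In the Tom-GFP+ lineage they did so for 38.7%. Atf3 ran the other way in 3 of 4 Tom+ injured libraries, with 296 and 348 CPM at steady state, 131, 384, 739 and 449 after injury, 397 in Tom-GFP+ steady state and 441 and 336 in Tom-GFP+ injured. It was lowest in the same library as the others, Tom+ injured replicate 1.

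For the heat shock pair, Hspa1a measured 270 and 335 CPM in Tom+ steady state, 148, 196, 306 and 162 in Tom+ injured, 295 in Tom-GFP+ steady state and 174 and 167 in Tom-GFP+ injured. Hspa1b measured 275 and 294, then 143, 195, 196 and 111, then 279, then 128 and 165 CPM. Hspa1a and Hspa1b summed reached 545 and 629 CPM in Tom+ steady state and 291, 391, 502 and 273 in Tom+ injured libraries, with no overlap, while the 8 immediate early genes summed reached 7175 and 8073 against 2910, 4547, 6921 and 5162. The heat shock pair thus did not share the high level of the immediate early genes in Tom-GFP+ steady state, where Hspa1a and Hspa1b summed reached 574 CPM and the 8 immediate early genes summed 10259 CPM. As for the lack of overlap in the Tom+ lineage, 21% of all single genes separated in the same direction after TMM scaling.

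**Figure D1:**
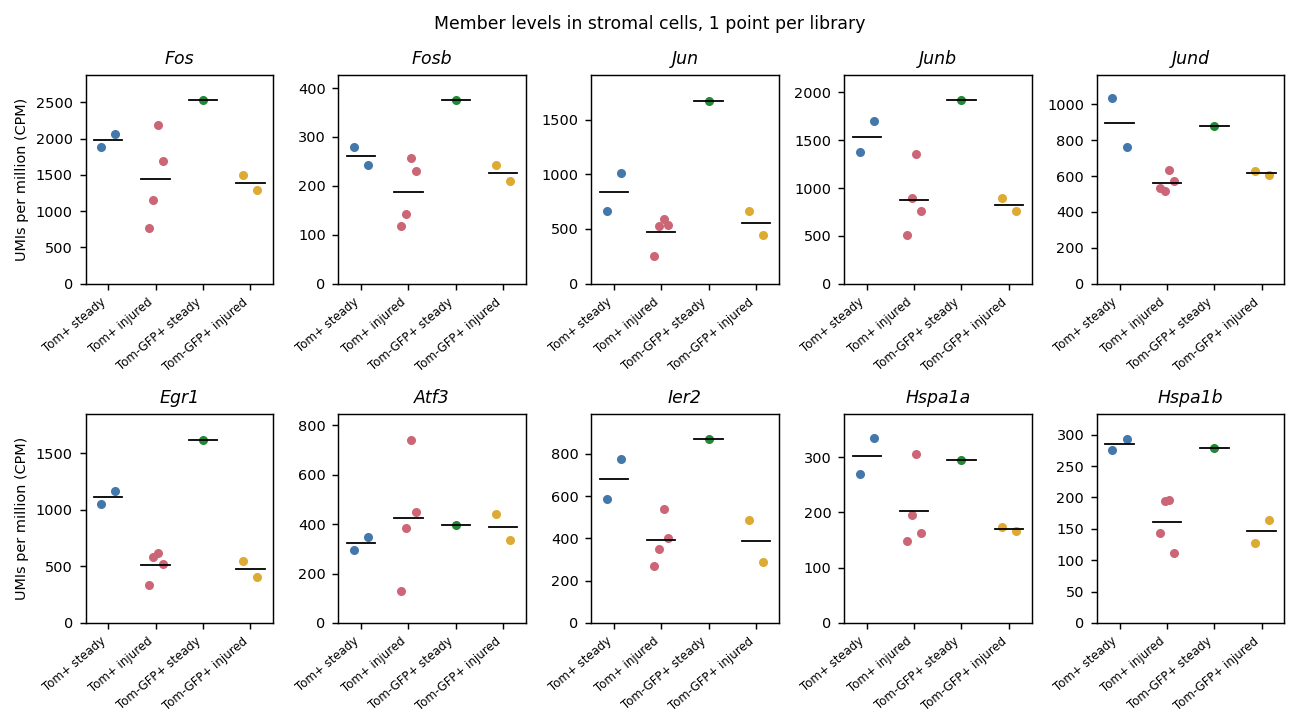
Level of each of the 10 members in stromal cells, in UMIs per 1000000 (CPM, y axis from 0), by lineage and state (x axis). Each point is 1 library and each black bar the group mean. The 4 Tom+ injured libraries lie below both Tom+ steady-state libraries for Egr1 (338 to 620 against 1051 and 1169 CPM), while for Fos and Atf3 the groups overlap.

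To ask whether the members changed after injury in the Gdf5 lineage, UMIs were summed over the stromal cells of each library and compared by edgeR's quasi-likelihood test, with p-values adjusted over all 14885 genes tested. These sums mix cell classes, whose shares differed between the states. Lining fibroblasts were 63 of 868 Tom+ stromal cells at steady state and 681 of 2617 after injury. Sublining fibroblasts were 596 and 1385 of the same cells. The part of class makeup in the differences was not tested. Of the 10 members, 2 passed an adjusted p of 0.05, Egr1 and Jund, both lower after injury. Among all genes tested 13.7% were called, 7.14% lower and 6.54% higher. Egr1 was 2.05-fold lower (1109.6 ± 83.4 CPM, SD, n = 2 against 516 ± 126, n = 4). Its log2 change was -1.04 (SE 0.25, 95% interval -1.60 to -0.48, edgeR adjusted p = 0.0302). Jund was 1.52-fold lower (898 ± 192 against 563 ± 51.6 CPM), with a log2 change of -0.61 (SE 0.17, edgeR adjusted p = 0.0482). Over 17 alternative settings, the call was lost in 6 for Egr1 and in 10 for Jund. Both calls were lost when either steady-state library or Tom+ injured replicate 2 or 4 was left out, with adjusted p from 0.052 to 0.147 for Egr1 and from 0.0768 to 0.329 for Jund, and the call of Jund also without Tom+ injured replicate 3 (0.0645).

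The other members did not pass the test. Hspa1b had the next smallest adjusted p (log2 change -0.75, SE 0.24, edgeR adjusted p = 0.0692), followed by Ier2 (-0.73, 0.132), Junb (-0.74, 0.158), Jun (-0.74, 0.165) and Hspa1a (-0.51, 0.245). Hspa1a was called lower without Tom+ injured replicate 3, its highest injured library (-0.78, edgeR adjusted p = 0.0492). In that setting 3.38% of all genes were called lower. Fos and Fosb gave log2 changes of -0.38 and -0.42 with intervals from -1.20 to 0.43 and from -1.10 to 0.27, and Atf3 gave 0.47 with an interval from -0.74 to 1.68. The median log2 change of the 10 members was -0.67, against 0.05 over all genes tested, and 9 of the 10 were negative. After scaling by edgeR's TMM factors, the 4 injured libraries lay below both steady-state libraries for 5 members, Jun, Jund, Egr1, Ier2 and Hspa1b, and for 21% of all genes.

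Most members were lower in injured libraries, whose cells were also deeper. Within libraries the immediate early genes took a smaller part of the UMIs of deeper sublining cells. Among the Tom+ injured libraries, replicate 1 was the deepest (median 18567 UMIs) and had the lowest Fos, Junb and Ier2 levels. Replicate 3 did not follow this order. Tom+ injured replicate 3 had a median of 14635.5 UMIs, above replicates 2 and 4 (12681.5 and 12223), and the highest Fos, Junb and Ier2 levels of these libraries. The part of depth in the difference between states was not tested. When the sums were restricted to stromal cells of 5000 to 12000 UMIs (72 to 351 cells a library, medians 7891 to 9698.5), a setting chosen after seeing the data, no member was called, and 999 genes were. The log2 change of Egr1 was then -0.47 (edgeR adjusted p = 0.33) and that of Jund -0.27 (0.527), while Fos (0.30) and Fosb (0.48) turned positive. In these cells Fos measured 1822 and 2176 CPM at steady state and 1899, 1969, 3829 and 2471 CPM in Tom+ injured libraries, and Egr1 measured 1026 and 1224 against 675, 997, 952 and 742 CPM. Fos was highest in Tom+ injured replicate 3, and its groups overlapped. Hspa1b gave a log2 change of -0.66 with the restriction (edgeR adjusted p = 0.268). The restriction kept 109 of 467 stromal cells in Tom+ injured replicate 3 and 351 of 543 in Tom+ steady replicate 2. It therefore also changed which cells were compared. In a planned setting, cells of at least 5000 UMIs were instead thinned to 5000, which keeps the deeper cells. There 2 members were called lower and 0 higher, and 7.95% of 12108 genes were called lower. Thinning leaves the expected part of each gene in a cell's UMIs unchanged, so this setting cannot show the part of depth.

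The result also changed with the gene-list format of the libraries used. With the older-format libraries alone (Tom+ injured replicate 1 against the 2 Tom+ steady-state libraries, with the lone injured library assumed to vary like the others), 9 of 10 members were called lower, Atf3 among them (log2 change -1.25), as were 6.05% of 13064 genes. Tom+ injured replicate 1 was the lowest of the 9 libraries for 8 of the 10 members on the TMM scale, against 12% of all genes. Depth, cycling cells and list format all set this library apart, and their part in its low levels was not tested.

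In the Tom-GFP+ lineage 9 of 10 log2 changes after injury were negative, with a median of -0.83 against 0.05 over all genes. The single steady-state library was assumed to vary like the other groups. Class makeup differed here too, with lining fibroblasts at 3 of 408 stromal cells at steady state and 72 of 759 after injury. None of the members passed the adjusted test (1.07% of all genes did, 0.658% lower and 0.417% higher), and 5 had an unadjusted p under 0.05, as did 23.3% of all genes. Egr1 had the largest difference, 3.23-fold lower, with a log2 change of -1.69 (SE 0.35, edgeR adjusted p = 0.0626), and DESeq2 called Egr1 and Jun among 6.23% of all genes. Jun was 2.85-fold lower (log2 change -1.51, SE 0.47, edgeR adjusted p = 0.112) and Junb 2.20-fold (-1.14, 0.182). Atf3 differed by 0.04 on the log2 scale, with an interval from -1.64 to 1.72. Both injured libraries lay below the steady-state one for 9 of 10 members, Atf3 being the exception, and for 38.7% of all genes.

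Whether the injury response differed between lineages was tested as an interaction, which was called for none of the members and none of the 14885 genes by edgeR (352 genes had an unadjusted p under 0.05, and DESeq2 called 12). The largest difference was in Jun, whose injury effect was 0.77 less negative in Tom+ than in Tom-GFP+ cells (SE 0.59, interval -0.58 to 2.12), followed by Egr1 (0.65, interval -0.34 to 1.65). Between the lineages after injury no member was called, with log2 differences (Tom+ over Tom-GFP+) from -0.30 for Fosb to 0.23 for Hspa1a. Of all genes, 0.0269% were called, 0.0134% lower and 0.0134% higher, and 958 had an unadjusted p under 0.05. DESeq2 called 95 genes, and none of the members. The intervals of those differences were widest for Atf3 (-1.08 to 1.30) and narrowest for Jund (-0.54 to 0.24), so differences within these bounds remain possible. At steady state the single Tom-GFP+ library lay above both Tom+ libraries for 7 of 10 members, against 33.8% of all genes, the exceptions being Jund, Hspa1a and Hspa1b.

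**Figure D2:**
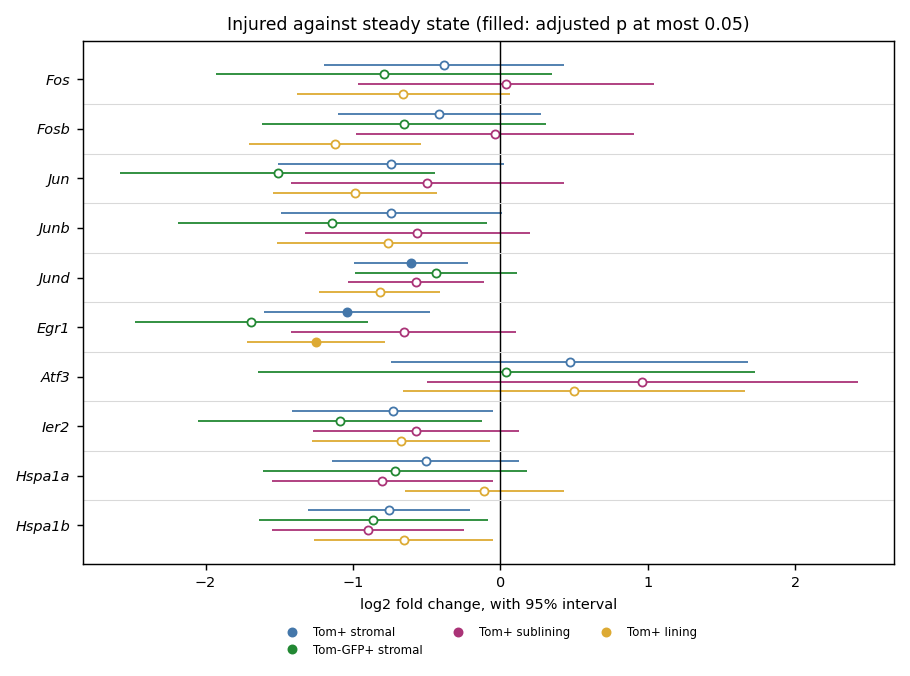
Log2 change after injury of each member (x axis; 0 is no change) in the 4 comparisons of state, with points for the edgeR estimate (filled where the adjusted p is at most 0.05) and bars for the 95% interval. Egr1 lies left of 0 in Tom+ stromal cells (-1.04), Tom+ lining fibroblasts (-1.25) and Tom-GFP+ stromal cells (-1.69), and Atf3 lies at or right of 0.

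The states were also compared inside single cell classes, which may still hold different kinds of cells in each state. Cells with at least 3 of the 4 injury-induced fibroblast markers Lrrc15, Adam12, Tnc and Mdk made up 0.490% to 0.923% of stromal cells in steady-state libraries and 11.8% to 43.5% in injured ones, with the most in Tom+ injured replicate 1, and their part in the differences was not tested. In Tom+ sublining fibroblasts no member passed the test, while 12.1% of 12863 genes did (6.82% lower, 5.29% higher). The unadjusted p was under 0.05 for 3 members (Jund, Hspa1a and Hspa1b) and for 31.3% of all genes. Fos measured 1468 and 1444 CPM at steady state and 549, 1370, 2126 and 1941 CPM after injury, and its log2 change was 0.04 (SE 0.44, interval -0.97 to 1.04). Egr1 measured 900 and 832 against 266, 686, 640 and 614 CPM (log2 change -0.66, edgeR adjusted p = 0.22). Hspa1b came closest to the threshold, with 211 and 226 against 122, 145, 143 and 63.4 CPM, a log2 change of -0.90 (SE 0.29, edgeR adjusted p = 0.0704), and DESeq2 called it (0.0411), alone of the members, among 13.3% of all genes. It was also called by edgeR without Tom+ injured replicate 4, where it was lowest (-0.70, adjusted p = 0.0418). Atf3 measured 288 and 229 against 97.8, 504, 835 and 580 CPM, with a log2 change of 0.96 (interval -0.50 to 2.42). Without Tom+ injured replicate 1, where it was lowest, it was called higher (1.29, edgeR adjusted p = 0.00851). Leaving out any 1 of the Tom+ libraries gave Atf3 log2 changes from 0.59 to 1.29. The share of all genes called without Tom+ injured replicate 1 or without replicate 4 is not given here.

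With list format added as a term, which leaves Tom+ injured replicate 1 as the only injured library of its format, 7 members were called lower in sublining fibroblasts, Fos with a log2 change of -1.46 and Atf3 with -1.45. Among all genes 7.7% were called lower with this term. Without the term but also without Tom+ injured replicate 1 the log2 change of Fos was 0.30, and it was -0.19 without Tom+ injured replicate 3 and -0.12 without Tom+ injured replicate 4.

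In Tom+ lining fibroblasts, the Prg4-producing cells that face the joint cavity, Egr1 was called lower, 1 of 10 members against 1.93% of 10556 genes (1.34% lower, 0.597% higher). It measured 1189 and 1138 CPM at steady state and 537, 482, 557 and 324 after injury, a 2.38-fold difference, with a log2 change of -1.25 (SE 0.21, edgeR adjusted p = 0.0256). Jund (-0.82, edgeR adjusted p = 0.0524), Fosb (-1.12, 0.0558) and Jun (-0.98, 0.0712) lay just outside the threshold, 7 members had an unadjusted p under 0.05 (20.3% of all genes did), and DESeq2 called 4, against 4.63% of all genes. Hspa1a measured 271 and 362 against 274, 221, 391 and 260 CPM (log2 change -0.11, interval -0.65 to 0.43), so the states overlapped for it. Without Tom+ injured replicate 1, Jun, Fosb and Jund were called lower as well (adjusted p from 0.0358 to 0.0394), where 4.13% of all genes were called lower. The call of Egr1 was lost without either steady-state library (adjusted p = 0.143 and 0.123; these hold 23 and 40 lining cells), without Tom+ injured replicate 2 or 3 (0.0575 and 0.0519), with list format as a term (0.203) and in cells of 5000 to 12000 UMIs (log2 change -1.36, adjusted p = 0.375).

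Between cell classes of the same library, depth, sort and digestion of the library are shared, although the cells of each class still differ in depth (medians per library from 13182 to 21456.5 UMIs in lining and from 8074 to 20277 in sublining cells). Lining fibroblasts carried more of the heat shock pair and less Jun and Atf3 than sublining fibroblasts over the 6 Tom+ libraries, 4 of 10 members called against 29.6% of 10557 genes (14.1% higher, 15.5% lower). The count of members was near that share, so it does not set the members apart from other genes. Hspa1a and Hspa1b share sequence and are not independent calls. Hspa1a measured 271, 362, 274, 221, 391 and 260 CPM in lining cells (steady-state libraries first) and 201, 268, 106, 141, 205 and 91.1 CPM in sublining cells, higher in lining in 6 of 6, with a log2 difference of 0.77 (SE 0.16, edgeR adjusted p = 0.00435). Hspa1b gave 0.62 (SE 0.16, adjusted p = 0.0133). Jun measured 661, 589, 210, 359, 390 and 263 CPM in lining and 606, 857, 208, 600, 674 and 600 in sublining cells, a log2 difference of -0.67 (SE 0.16, edgeR adjusted p = 0.00793), although it was slightly higher in lining cells in Tom+ steady replicate 1 and Tom+ injured replicate 1. Atf3 gave -0.70 (SE 0.21, adjusted p = 0.0284).

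In cells of 5000 to 12000 UMIs Jun alone of the 4 was called between lining and sublining cells (log2 difference -1.34, edgeR adjusted p = 0.000249), Hspa1a gave 0.74 (0.0513), Hspa1b 0.39 (0.265) and Atf3 -0.63 (0.222). The call of Atf3 was also lost without Tom+ injured replicate 2, 3 or 4 (0.0724 to 0.103). Fos, Fosb, Junb, Jund, Egr1 and Ier2 were not called, with log2 differences from -0.28 for Fos to 0.11 for Ier2.

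Chondrocyte-lineage cells, gated on cartilage genes such as Col2a1 and Acan, had the highest levels of immediate early transcripts among the gated classes. In the 3 Tom+ libraries with enough of them (19 or 20 cells each), 9 of 10 members were called higher than in sublining fibroblasts, against 17.5% of 9201 genes (7.97% higher, 9.51% lower). Fos measured 7412, 12386 and 5018 CPM in chondrocyte-lineage cells of Tom+ steady replicate 2 and Tom+ injured replicates 3 and 4, where sublining cells had 1444, 2126 and 1941. The difference was 4.20-fold for Fos (log2 difference 2.07, SE 0.39, edgeR adjusted p = 0.000262), 5.54-fold for Fosb (2.47, SE 0.35, 5e-06) and 4.83-fold for Junb (2.27, SE 0.38, 5.14e-05). The 8 immediate early genes summed reached 25540, 36414 and 15742 CPM in these 3 libraries and were highest in chondrocyte-lineage cells among the classes with at least 10 cells in each. Chondrocyte-lineage cells were higher than sublining cells of their own library for Fos, Fosb, Jun, Junb, Jund, Egr1 and Ier2 in 4 of 4 libraries, the Tom-GFP+ injured replicate 1 included, which the test did not use. Atf3, Hspa1a and Hspa1b were higher in 3 of 4, with lowest ratios of 0.647, 0.573 and 0.426. The share of all genes higher in 4 of 4 libraries was not computed. Tom-GFP+ injured replicate 1 held 11 such cells. At steady state the paper describes Tom- chondrocytes as mature or hypertrophic and likely from the growth plate, and Tom+ ones as superficial zone cells.

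Ier2 (log2 difference 2.29), Atf3 (1.98), Jun (1.83), Egr1 (1.48), Hspa1a (1.22) and Jund (1.15) were also called in chondrocyte-lineage cells, with edgeR adjusted p from 8.72e-06 for Ier2 to 0.0431 for Hspa1a. Hspa1b was not called (1.12, edgeR adjusted p = 0.0881), except without Tom+ steady replicate 2 (2.07, edgeR adjusted p = 3.7e-07). Leaving out 1 library gave 1148 to 1433 called genes in this comparison. Hspa1a did not keep 1 direction, with 153 CPM in chondrocyte-lineage cells of the steady-state library against 268 in its sublining cells, and 829 and 435 CPM in the injured libraries against 205 and 91.1. Its call was lost by DESeq2 (0.231), after thinning (0.305) and without either injured library (0.248 and 0.554), and that of Jund without either injured library (0.0526 and 0.0552). Chondrocyte-lineage cells were shallow (medians 5386.5 to 9979 UMIs a library), and among cells of 5000 to 12000 UMIs 5 members stayed called, Fos, Fosb, Jun, Junb and Ier2, with log2 differences from 1.49 to 2.22, where 8.9% of 4515 genes were called higher.

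Osteoblast-lineage cells, gated on Ibsp and Sp7, carried more of the heat shock pair without a called difference in the immediate early genes. Of 10 members 2 were called, against 10.5% of 8447 genes (4.88% higher, 5.67% lower). Hspa1a measured 578, 777, 217, 417 and 425 CPM in osteoblast-lineage cells of Tom+ steady replicates 1 and 2 and Tom+ injured replicates 1, 2 and 4, and 201, 268, 106, 141 and 91.1 CPM in sublining cells, higher in 5 of 5. Its log2 difference was 1.53 (SE 0.17, edgeR adjusted p = 8.71e-05), and that of Hspa1b 1.44 (SE 0.18, 0.000181). Both calls held in every setting run for this comparison, with log2 differences of 1.32 and 1.08 in cells of 5000 to 12000 UMIs. Without Tom+ injured replicate 2 Jun, Junb and Ier2 were called higher too, where 3.89% of 8544 genes were called higher. Without Tom+ injured replicate 1, where Atf3 was higher than in sublining cells, Atf3 was called lower (-1.17, edgeR adjusted p = 0.0494). Leaving out 1 library gave 646 to 869 called genes in this comparison. Atf3 was low in osteoblast-lineage cells at steady state (28.6 and 103 CPM) and measured 226, 264 and 502 CPM in the injured libraries, a description without a test.

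Mural cells, the contractile cells of vessel walls, carried a higher heat shock pair as well, and Junb. Of 10 members 3 were called higher over 4 Tom+ libraries, against 13.9% of 9536 genes (6.75% higher, 7.13% lower). Hspa1a measured 1009.7 CPM in mural cells of Tom+ steady replicate 2 and 316, 525 and 214 in Tom+ injured replicates 1, 2 and 4, against 268, 106, 141 and 91.1 CPM in sublining cells (log2 difference 1.40, SE 0.22, edgeR adjusted p = 0.000687). Hspa1b gave 1.34 (SE 0.25, 0.0022) and Junb 1.00 (SE 0.29, 0.0351), and the call of Junb was lost without Tom+ injured replicate 1, 2 or 4 (0.0542 to 0.241). The 11 mural cells of Tom+ steady replicate 2 had 2666 CPM of Egr1 and 2035 CPM of Atf3, where the 3 injured libraries had 405 to 564 and 365 to 466 CPM.

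Tenocyte-lineage cells, gated on Tnmd and Scx, were at the other end. No member was called over 4 Tom+ libraries (3.45% of 9927 genes were, 1.92% lower and 1.52% higher), all 10 log2 differences were negative, 3 had an unadjusted p under 0.05 (12.2% of all genes did), and their median was -0.50 against -0.01 over all genes. DESeq2 called no member. Egr1 was nearest to the threshold, with 564, 285, 308 and 96.3 CPM in tenocyte-lineage cells against 832, 266, 686 and 614 CPM in sublining cells (log2 difference -0.95, SE 0.30, edgeR adjusted p = 0.118). It was called without Tom+ injured replicate 1 (-1.39, edgeR adjusted p = 0.0306), where it was not lower than in sublining cells. Junb was called without Tom+ steady replicate 2 (-1.02, edgeR adjusted p = 0.0472). Leaving out 1 library gave 194 to 407 called genes in this comparison. Classes were tested against sublining fibroblasts, and differences among the other classes were not tested.

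**Figure D3:**
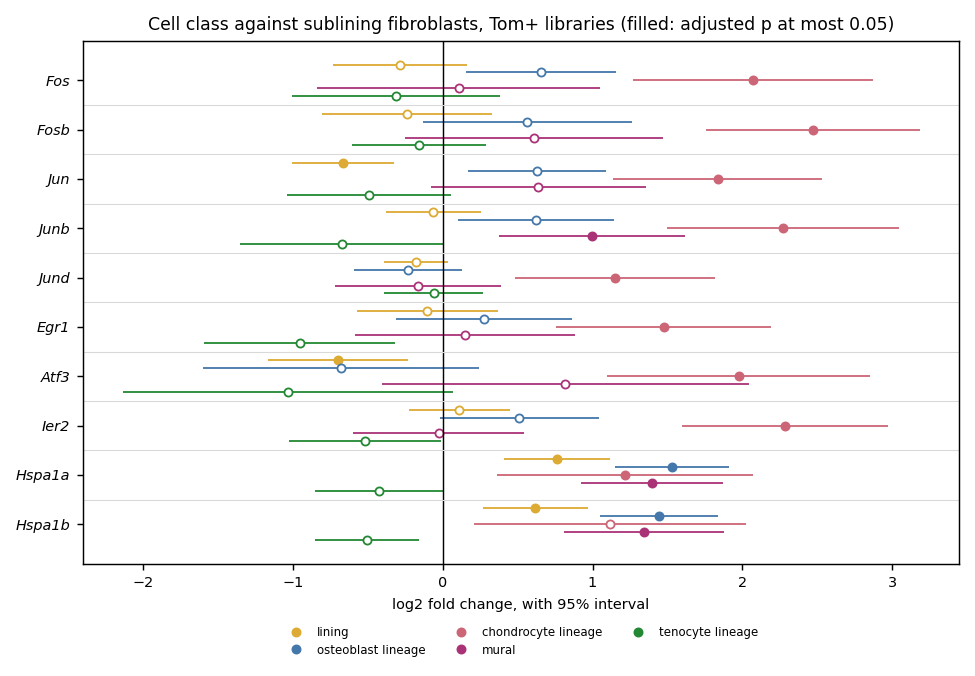
Log2 difference of each member between a cell class and the sublining fibroblasts of the same Tom+ libraries, with edgeR estimates as points (filled where the adjusted p is at most 0.05) and 95% intervals as bars. Chondrocyte-lineage cells lie right of 0 for all 10 members (1.12 to 2.47), and Hspa1a lies right of 0 in lining (0.77), osteoblast-lineage (1.53) and mural cells (1.40).

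Within a library, the immediate early genes took a smaller part of the UMIs of deeper sublining cells. Sublining cells of each library were split at their median UMIs, and the levels of the deeper cells were divided by those of the shallower cells. The ratio was below 1 in 9 of 9 libraries for each of the 8 immediate early genes, with medians from 0.539 for Atf3 to 0.722 for Jund and 0.550 for Fos. For Hspa1a it ranged from 0.641 to 1.32, above 1 in 3 of 9 libraries, with a median of 0.903, and for Hspa1b from 0.725 to 1.94, with a median of 0.908. CPM already divides by depth, so a gene that keeps its part of the transcriptome has a ratio near 1. Split at the median mitochondrial share, cells with the larger share had less Hspa1a in 9 of 9 libraries (median ratio 0.782) and less Hspa1b in 8 of 9 (0.777), and more Fos in 8 of 9 (1.34). The other immediate early genes did not share 1 direction in this split. The ratio was above 1 for Fosb in 7 of 9 libraries (median 1.12), for Jund and Atf3 in 6 (1.06 and 1.20), for Jun and Junb in 4 (0.924 and 0.952), for Ier2 in 3 (0.945) and for Egr1 in 2 (0.913). These splits are descriptions of cells within libraries, and no test was run on them. The share of all genes with such ratios was not computed, so the counts of libraries cannot be called particular to the members.

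**Figure D4:**
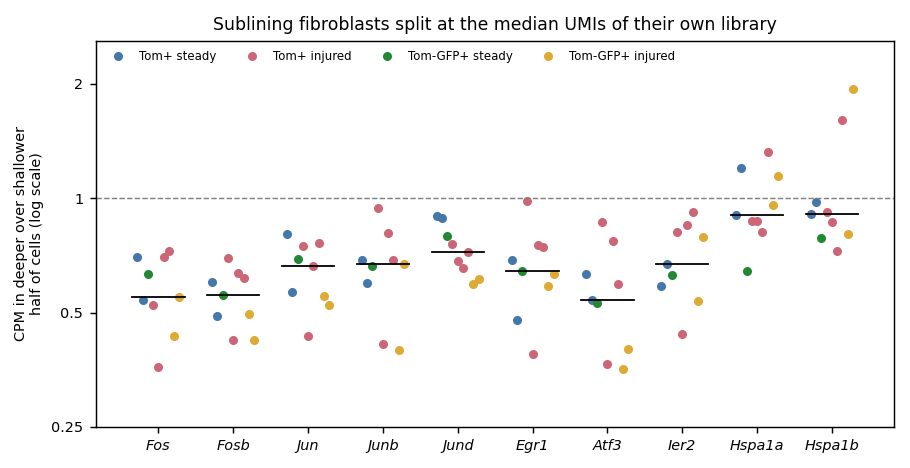
Ratio of each member's level (CPM) in the deeper cells of a library's sublining fibroblasts to that in the shallower ones, split at the median (y axis, log scale), 1 point per library and a black bar for the median. The 8 immediate early genes lie below 1 in all 9 libraries, while Hspa1a lies above 1 in 3 of 9 and Hspa1b in 2 of 9.

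Within injured libraries, sublining cells with at least 3 of the markers Lrrc15, Adam12, Tnc and Mdk had lower levels of immediate early genes than their neighbours. The 8 immediate early genes summed were lower in the cells with these markers in 6 of 6 injured libraries, with a median ratio of 0.664 (0.335 to 0.914). They measured 2256, 3259, 5679 and 4210 CPM in cells with the markers and 2468, 6373, 7297 and 6056 CPM in cells without them in the 4 Tom+ libraries, so Tom+ injured replicate 1 showed the smallest difference. Hspa1a and Hspa1b summed were lower in 4 of 6 (median ratio 0.895). Cells with the markers were deeper (medians 12645 to 23417 against 8739.5 to 15070 UMIs). In the 3 libraries with enough such cells of 5000 to 12000 UMIs, the 8 immediate early genes summed were lower in 3 of 3, with ratios from 0.325 to 0.750 and 12 to 26 cells with the markers. Depth was not matched by this restriction, since medians were 9873 to 10371.5 UMIs with the markers and 7793.5 to 9825.5 without them. The share of all genes lower in cells with the markers was not computed. For the 8 immediate early genes summed, stromal cells with cycling markers had a median ratio of 0.490 over 5 libraries (0.393 to 1.11, below 1 in 4), and were deeper as well (19229 to 28629.5 against 11741.5 to 17656 UMIs).

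The share of stromal cells with at least 1 UMI was compared at equal depth, after 4226 cells of 5000 UMIs or more were thinned to 5000 UMIs and 426 shallower ones were left out (147 and 72 in the Tom+ and Tom-GFP+ steady-state groups, 109 and 98 in the injured groups). Egr1 was found in 70.4% ± 1.54 of Tom+ steady-state cells (SD, n = 2) and 58.6% ± 6.86 of Tom+ injured cells (n = 4), with 71.5% and 69.4% against 48.8%, 62.2%, 64.4% and 59.0% in the single libraries, so the groups did not overlap. Fos was found in 76.9% ± 2.94 against 75.9% ± 6.64, and Atf3 in 33.6% ± 0.43 against 46.9% ± 13.9, and for both the groups overlapped. Hspa1b was found in 48.7% ± 0.737 against 38.1% ± 7.65, without overlap. The share of all genes whose detection separates these groups was not computed. In Tom-GFP+ steady state Egr1 was found in 81.8% (exact 95% binomial interval 77.3 to 85.8) and Fos in 86.6% of cells. Without thinning, the Tom+ injured means were 74.7% for Egr1, 86.3% for Fos, 63.5% for Atf3 and 55.8% for Hspa1b. Intervals cover counting error only. No class that should lack the members was found, since immune cells that passed the sort also held Fos UMIs in 78.3% and 84.4% of thinned cells in 2 libraries, so a background share could not be set.

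A minority of cells held much of each gene's signal. In stromal cells thinned to 5000 UMIs, the tenth of cells with the most UMIs of a gene held 40.3% to 50.8% of all Fos UMIs over the 9 libraries, 51.4% to 75.2% of Atf3 UMIs and 47.3% to 67.1% of Hspa1a UMIs. Jund was the most even, with 25.2% to 32.6%, and was found in 87.0% to 95.6% of cells. Genes of few UMIs per cell reach a large share by counting alone, and no adjustment was made for that.

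Cells that were high in 1 immediate early gene were high in the others, and the heat shock pair varied apart from them. Across the thinned sublining cells of each library (175 to 403 cells), the Spearman correlation of the 28 pairs of immediate early genes had a median over libraries between 0.201 and 0.683, with 0.517 in the middle. It was highest for Junb and Egr1 (0.683) and for Fos and Egr1 (0.661) and lowest for the pairs with Jund (0.201 with Fos to 0.285 with Egr1). Hspa1a and Hspa1b correlated at 0.453, although the split of reads between the copies is uncertain. The 16 pairs of an immediate early with a heat shock gene lay between 0.0401 and 0.196. All points of a correlation come from 1 library and share its depth and handling, so these values are descriptions without p-values.

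**Figure D5:**
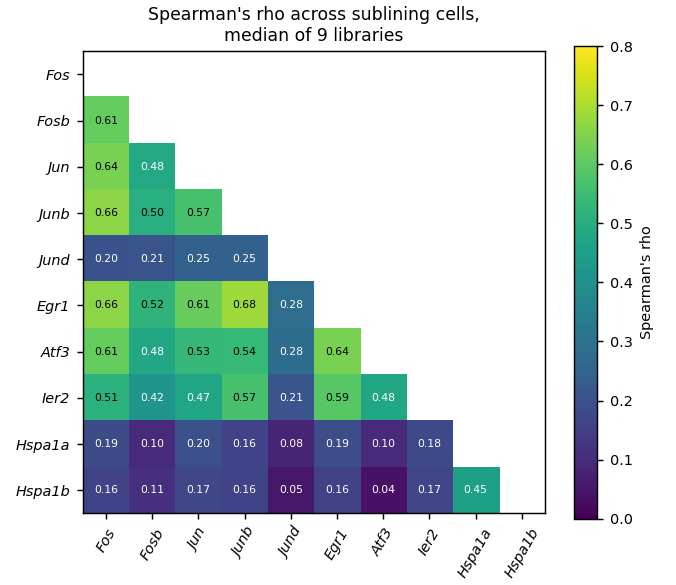
Spearman correlation across thinned sublining cells for each pair of members (colour scale), as the median over the 9 libraries. Lighter squares are higher. The immediate early genes form a light block except along Jund, Hspa1a and Hspa1b form a pair of their own (0.453), and the squares between the blocks lie between 0.0401 and 0.196.

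Across 33 sums of at least 20 cells of a class in a library, the genes most like Fos among 8015 were, outside the members, Egr2 (Spearman 0.767), Btg2 (0.765), Xist (0.757), Socs3 (0.747) and Dnajb9 (0.744). Among the members, Fosb (0.880), Junb (0.811), Egr1 (0.797) and Jun (0.795) came closest, and Atf3 lay at 0.412. For Hspa1a, Hspa1b lay at 0.948, and outside the members Mef2a (0.833), Tmem30a (0.801), Tmem246 (0.781), Tsc22d3 (0.773) and Cpe (0.771) followed. Fos and Hspa1a correlated at 0.337. Sums from the same library share its mouse, depth and digestion, so these are descriptions. Differences between mice, such as sex, were not examined, for Xist or for the other genes.

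Other genes of the same pathways were read from lists of 30 immediate early genes, 18 heat shock genes and chaperones (17 tested), 7 AP-1 partners and 9 upstream transcription factors. After injury in Tom+ stromal cells, 4 of 17 chaperones were called higher, against 6.54% of all genes, where neither Hspa1a nor Hspa1b was, Hsp90aa1 (log2 change 0.86), Hspe1 (0.82), Chordc1 (0.68) and Hsph1 (0.65), and Cryab, a small heat shock protein, was called lower (-0.84). Their median was 0.41 against 0.05 over all genes. Of the 30 other immediate early genes only Zfp36, which destabilizes cytokine transcripts, was called, lower (-1.05, edgeR adjusted p = 0.0439; 7.14% of all genes were lower). No AP-1 partner of 7 was called, and of 9 upstream factors Elk3 was called higher (1.07). In Tom+ sublining fibroblasts 2 of 30 immediate early genes were called, both higher (Nr4a2, 1.35, and Trib1, 1.19; 5.29% of all genes were higher), with Hspe1 (0.82), Hsp90aa1 (0.92) and Elk3 (1.11). In Tom+ lining fibroblasts Socs3, a feedback inhibitor of cytokine signalling, was called lower (-2.01, edgeR adjusted p = 0.0202), as was Cryab (-0.96). In Tom-GFP+ stromal cells Cryab was the single call of the 4 lists (-1.32, adjusted p = 0.0498), and edgeR called none of their genes in the interaction or between the injured lineages.

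Against sublining fibroblasts, other immediate early genes were called most often in chondrocyte-lineage cells. In chondrocyte-lineage cells 20 of 30 other immediate early genes were called higher and none lower than in sublining fibroblasts (7.97% of all genes were higher), with a median of 1.51 against -0.13 over all genes, led by Nr4a2 (log2 difference 3.26), Errfi1 (3.23), Btg1 (2.44) and Klf2 (2.52). Of 17 chaperones Dnajb1, a co-chaperone of HSP70, was called higher (1.17), and Hspb8 (-1.33) and Cryab (-1.29) lower. Of 6 AP-1 partners tested Atf4 (1.11), Batf3 (3.30) and Mafk (1.88) were higher and Jdp2 (-3.40) lower, and of 9 upstream factors Srf was higher (2.42) and Mkl2 lower (-3.11). In mural cells 12 of 29 immediate early genes were called higher and 2 lower (6.75% and 7.13% of all genes), and of the chaperones Hspb1 (2.26) and Cryab (1.13) higher. Batf3 (2.84) and Mkl2 (1.58) were higher there and Jdp2 lower (-1.91). In lining fibroblasts 2 of 30 were higher, Errfi1 (2.69) and Klf2 (0.79), against 14.1% of all genes, and 10 were lower, against 15.5%, led by Cebpd (-1.94), Ier3 (-0.93), Myc (-0.94) and Ier5 (-0.83). Their chaperones included Hspb8 higher (0.98) and Cryab (-1.04), Hspa5 (-0.44) and Hsp90aa1 (-0.36) lower, with Jdp2 lower (-0.76) and Elk4 higher (0.66). In osteoblast-lineage cells 4 of 28 were higher (4.88% of all genes were), Btg1 (1.07), Zfp36 (0.94), Gadd45b (0.86) and Socs3 (0.87), and Cebpb (-0.72) and Rhob (-0.92) were lower, while no chaperone was called higher and Hspb8 was called lower (-1.16). In tenocyte-lineage cells Nr4a2 was higher (0.96) and 3 of 29 were lower (1.92% of all genes were), Errfi1 (-1.79), Klf4 (-0.61) and Fosl1 (-1.10).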

How the data were processed

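Knee synovial cells were sorted into Tom+ and Tom-GFP+ populations and profiled with a 5′ droplet kit in 9 libraries. The deposited matrices hold raw UMI counts per gene and cell barcode, made by the authors with Cell Ranger on GRCm38.p6 (version 3.0.2 in the headers of 5 injured libraries; the version of the other files is not given in the sources used here), without normalization, for barcodes already called as cells. The authors' clusters were not used here. Cells were kept at 500 genes, 1000 UMIs and 10% mitochondrial UMIs and gated where at least 3 markers of a class were detected and their share exceeded that of every other class. No doublet caller was run. UMIs were summed per library and class (at least 10 cells) and tested with edgeR 4.0.16 in R 4.3.3 (TMM, filterByExpr, quasi-likelihood, two-sided) on all genes passing the filter, and called at a Benjamini-Hochberg adjusted p of 0.05. States were compared in 1 fit over the 4 groups of lineage and state, or over the Tom+ libraries for lining cells, and classes with the library as a block. Standard errors are the log2 change over the root of F. Shares have exact (Clopper-Pearson) 95% intervals. Within-library ratios and correlations carry no test.

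The members and lists were chosen with earlier results of these data known. All 10 members enter every comparison, and those named first in each are the ones called or nearest to the threshold. From the 4 related lists, counts and at most 4 called genes a direction are named by smallest p, and for Fos and Hspa1a the 5 genes with the highest correlation. Alternatives were DESeq2 1.42.0, other size factors, filters, gates and thinning, a replicate or list-format term, and leaving out each library. Restriction to 5000 to 12000 UMIs, older-format libraries alone and all alternatives for the 4 smaller classes were added after seeing the data.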

Additional observations from a re-analysis of the deposited data

Results flagged for a closer look

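In groups of 4 libraries, the gap between an extreme library and its neighbour was set against the range of the group for each member in stromal, sublining and lining cells. Of 30 groups, 2 passed Dixon's 95% critical value, which chance passes in about 1 of 20. Jun in sublining cells was lowest in Tom+ injured replicate 1, with 208 CPM against 600, 600 and 674 in the other 3 libraries (ratio 0.841). Fos in lining cells was highest in Tom+ injured replicate 3, with 1845 CPM against 909 in the next and 798 in the lowest library (ratio 0.894).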

How the results depend on the processing

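DESeq2 called 927 genes in Tom-GFP+ stromal cells after injury, 12 for the interaction, 95 between injured lineages and 489 in lining fibroblasts, with 2, 0, 0 and 4 members, and 1 member in sublining fibroblasts. Atf3 in Tom-GFP+ cells gave -0.013 with it and -0.012 with its size factors. In cells of 5000 to 12000 UMIs, genes called were 999 in Tom+ and 92 in Tom-GFP+ stromal cells, 30 between lineages, 1032 in sublining and 27 in lining fibroblasts, 978 between lining and sublining (1 member), 564 in osteoblast-lineage, 177 in tenocyte-lineage and 769 in chondrocyte-lineage cells (5 members), with 0 members in Tom+ stromal and lining cells. Fos (0.30) and Fosb (0.48) reversed in Tom+ stromal cells, Fosb in sublining (0.47) and lining (0.15), Hspa1a in lining (0.086) and tenocyte-lineage (0.38) and Egr1 in osteoblast-lineage (-0.14) and mural cells (-0.098). After thinning to 5000 UMIs, genes called were 15 between lineages, 1950 between lining and sublining, 490 in osteoblast-lineage and 913 in chondrocyte-lineage cells, and members called were 1 in Tom-GFP+ stromal and 2 in lining cells. Reversals were Atf3 in Tom-GFP+ (-0.015), Fos between lineages (-0.015) and Ier2 (0.18), Fos (-0.068) and Egr1 (-0.12) in mural cells. With no filter, genes called were 1439 in Tom-GFP+ cells (2 members), 10 for the interaction, 189 between lineages, 2966 in sublining (3 members) and 1259 in lining cells (8 members), with Atf3 at -0.0069 and, between lineages, Ier2 at 0.0018. With list format as a term, genes called were 1204 in Tom+, 254 in Tom-GFP+ (2 members), 8 between lineages and 28 in lining cells (0 members), with 7 members in sublining cells. Atf3 gave -1.24 in Tom+, -1.97 in Tom-GFP+, -1.45 in sublining and -0.64 in lining cells, Fos -1.46 in sublining cells and Ier2 0.13 between lineages. Older-format libraries alone called 9 members, with Atf3 at -1.25. Stricter cell filters left 1 gene between lineages and Fos at -0.034 in sublining cells. A gate with 1 more marker gave 2 members and Hspa1a at 0.0047 in lining cells. Without cycling cells 315 genes were called in Tom-GFP+ cells and 8 between lineages. Deviations of same-numbered libraries correlated from -0.13 to 0.258, with 0.258 and 0.073 for the pairs of injured libraries. These values cannot decide whether numbers pair libraries, since deviations in a group of 2 mirror each other. Pairs of an injured with a steady-state library do not bear on it either. Which libraries shared a mouse is not given, so the numbers were not taken to pair libraries. With the replicate number as a block, genes called were 1121 in Tom+ stromal (1 member), 307 in lining (5 members) and, in place of the library block, 1741 between lining and sublining cells (0 members). With this block Atf3 reversed in Tom+ (-0.35), Tom-GFP+ (-0.14), sublining (-0.032) and lining cells (-0.21), Fos in sublining cells (-0.72), Atf3 (-0.21), Fosb (-0.30) and Fos (-0.13) in the interaction, and Atf3 (-0.76), Junb (-0.31), Fos (-0.58), Hspa1a (-0.026) and Egr1 (-0.097) between lineages. Leaving out 1 library, genes called ranged from 146 to 2309 in Tom+ stromal cells (lowest without Tom+ steady replicate 1, highest without Tom+ injured replicate 1; 0 to 2 members), 3 to 4 in Tom-GFP+, 0 to 13 between lineages, 194 to 1960 in sublining (0 to 1 member), 19 to 565 in lining (0 to 4 members) and 194 to 407 in tenocyte-lineage cells (0 to 1 member), with 2 to 5 members in osteoblast-lineage and 7 to 10 in chondrocyte-lineage cells. Members that changed sign in this way ranged as follows. In Tom-GFP+ cells, Atf3 -0.18 to 0.23. In the interaction, Hspa1b -0.061 to 0.29, Hspa1a -0.062 to 0.37 and Jund -0.38 to 0.072. Between lineages, Jun -0.50 to 0.065, Ier2 -0.35 to 0.42, Hspa1b -0.051 to 0.31, Atf3 -0.30 to 0.42, Junb -0.22 to 0.26, Fos -0.24 to 0.25, Egr1 -0.11 to 0.33 and Hspa1a -0.042 to 0.36. In sublining cells, Fosb -0.32 to 0.32 and Fos -0.19 to 0.30. In lining cells, Atf3 -0.090 to 0.73, Hspa1b -1.08 to 0.064 and Hspa1a -0.30 to 0.14. Between lining and sublining, Ier2 -0.042 to 0.18, Egr1 -0.31 to 0.075 and Junb -0.17 to 0.071. In tenocyte-lineage cells, Fosb -0.39 to 0.047, Jund -0.15 to 0.073 and Fos -0.70 to 0.18. In mural cells, Fos -0.44 to 0.61, Egr1 -0.20 to 0.47, Ier2 -0.37 to 0.11 and Jund -0.35 to 0.0042. Unthinned shares of Tom+ injured cells were 86.3% for Fos, 57.7% for Fosb, 86.3% for Jun, 91.3% for Junb, 97.7% for Jund, 74.7% for Egr1, 63.5% for Atf3, 81.6% for Ier2, 57.7% for Hspa1a and 55.8% for Hspa1b. Counts of members called in this section stand without the number of genes tested in each setting. They therefore cannot be read as more than the rate over all genes. In Tom+ stromal cells the share of all genes called was 10.7% with no filter, 7.53% with the replicate block and 8.09% with the list-format term. Apart from what is stated, the cause of these shifts was not tested.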
